A study of Mus musculus with 12 samples.

Results

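Carbonic anhydrases are zinc enzymes that convert carbon dioxide and water into bicarbonate and a proton, and run the same reaction backwards. In the liver the mitochondrial form Car5a supplies bicarbonate to carbamoyl phosphate synthetase (Cps1), the entry enzyme of the urea cycle, and to pyruvate carboxylase (Pcx). Other members work in the cytosol or, as membrane proteins, outside the cell. The 8 genes described are Car1, Car2, Car3, Car4, Car5a, Car8, Car12 and Car14. They are 8 of the 16 carbonic anhydrase genes found in the mouse count table and 8 of its 27179 genes. The list was chosen with measured values in view: Car4 was selected on its high level in c-MET/β-catenin livers of mice on low-protein diet (LPD), so its values there are given as a description with no test. Of the 8 genes, 7 passed the filter on low counts, and Car12 did not. Car4 passed it only through the c-MET/β-catenin libraries, where it is high, so its difference on CD is a description too, and 6 members were tested.

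RNA was sequenced from the livers of 12 male mice, 1 library per mouse, in 4 groups of 3. Mice ate chow diet (CD) or LPD for a week before a hydrodynamic tail vein injection of Sleeping Beauty plasmids, and stayed on it. The plasmids carried either no oncogene (Vec, called WT in the sample titles) or human c-MET together with ΔN90-β-catenin, a truncated β-catenin that stays active. Together they give hepatocellular carcinoma. Groups are named by diet and injection (CD Vec and LPD Vec, and c-MET/β-catenin on either diet). All were harvested when the tumour-bearing CD mice reached their end point. The paper reports that oncogene mice on LPD then had a lower tumour burden than those on CD. Where c-MET/β-catenin livers are compared between diets, also in the interaction, diet and tumour load therefore cannot be told apart. The EF1α promoter that drives the oncogenes is not specific to one cell type, and the injection reaches a fraction of hepatocytes, so each library mixes cells with and without the transgenes. Samples are labelled as hepatocytes, but the source is whole liver. The hepatocyte gene Alb was at 43662 to 87851 CPM (read counts scaled to library size) in the 12 libraries.

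Libraries held 19476209 to 31990267 reads over genes, and at the smallest total 1 CPM corresponds to 19.48 reads before scaling. The dataset numbers in the table header form 3 runs, whose meaning the labels do not give. CD c-MET/β-catenin replicates 1 and 2 make up run 1, and CD Vec replicates 1 and 2 with LPD Vec replicate 1 make up run 3. Run 2 holds the other 7 libraries, with all 4 groups. Fold changes below are log2 values with their standard error (SE) from edgeR's quasi-likelihood test, and a gene was called when its adjusted p, by Benjamini-Hochberg over 13947 genes, was under 0.05. Nothing says whether mice shared a litter or cage, so the p-values measure the spread between these 12 mice only.

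The genes lie on 5 chromosomes of the mm10 genome. Car1 (chr3:14766214-14808365), Car3 (chr3:14863538-14872381) and Car2 (chr3:14886269-14900770) form a cluster with Car13, and the 4 genes span 259 kb. Car3 and Car2 are neighbours on the same strand, 13.9 kb apart. Car14 (chr3:95897768-95905117) lies elsewhere on chromosome 3. Car4 is at chr11:84957754-84966054, Car5a at chr8:121916135-121944912, Car8 at chr4:8141493-8239041 and Car12 at chr9:66712296-66766845. Part of the exons of Car5a (23.4%) overlaps BC048644, a noncoding RNA on the other strand that is annotated as coming from a bidirectional promoter. Part of the exons of Car14 (17.5%) overlaps Aph1a on the other strand. The strand setting of the read counting is not stated, so reads from those stretches cannot be assigned to one gene of the pair.

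Because a β-catenin that activates TCF/LEF factors was injected, promoters were searched for the TCF/LEF core CTTTGA and for the hypoxia response core ACGTG on both strands. RefSeq windows (GRCm38.p6) from 250 bases before to 50 bases after an annotated start were given. They covered 11 carbonic anhydrase genes in 15 windows, among them the members Car4, Car5a, Car12 and Car14. For Car12 and Car14 the start used lies inside the gene span given above, and so does the whole window. The promoters of Car1, Car2, Car3, Car8 and Car13 were not analysed here. No member's window held CTTTGA, which was present in 16% of all 32851 windows and in those of Car9 and Car15. ACGTG was present in 19.6% of all windows, and among members in those of Car4 and Car14. The 250 bases before the start are shown for Car4, the member with the largest rise (chr11:84957504-84957753, plus strand), and for Car5a (chr8:121944913-121945162, minus strand) and Car14 (chr3:95904686-95904935, minus strand), which fell on CD. Capitals mark a match to ACGTG or its reverse complement, read 5′ to 3′ on the gene's strand. A match is a string of letters and not a tested site.
Car4: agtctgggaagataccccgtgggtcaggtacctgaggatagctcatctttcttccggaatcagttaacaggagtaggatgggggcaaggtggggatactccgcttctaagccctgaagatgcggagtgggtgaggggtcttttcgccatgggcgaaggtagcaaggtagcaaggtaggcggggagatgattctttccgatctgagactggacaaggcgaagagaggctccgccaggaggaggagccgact
Car5a: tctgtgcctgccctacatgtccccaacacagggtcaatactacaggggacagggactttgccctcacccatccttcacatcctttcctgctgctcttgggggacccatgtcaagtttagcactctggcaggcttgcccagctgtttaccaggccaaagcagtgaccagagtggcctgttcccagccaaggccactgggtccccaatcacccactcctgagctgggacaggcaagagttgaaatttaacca
Car14: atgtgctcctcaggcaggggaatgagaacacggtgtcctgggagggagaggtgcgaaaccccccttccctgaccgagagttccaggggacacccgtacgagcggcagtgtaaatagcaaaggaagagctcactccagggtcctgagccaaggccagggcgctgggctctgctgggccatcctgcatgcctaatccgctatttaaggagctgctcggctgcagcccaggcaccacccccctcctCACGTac
In Car4 the match starts at base 3 after the start and so lies outside the stretch shown. In Car14 it starts 7 bases before it.

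Levels differed widely among the members. Per kilobase of merged exons, Car3 led in CD Vec livers at 270 ± 39.9 CPM per kb (SD, n = 3), followed by Car5a at 50.7 ± 1.23, Car8 at 30.1 ± 2.16, Car14 at 11.5 ± 5.43, Car1 at 9.25 ± 5.56 and Car2 at 1.74 ± 0.30. Car14 and Car1 did not differ beyond their spread, and the other neighbours in this order did. Car4 was close to 0 (0.096 CPM per kb) and Car12 had no read. In CD c-MET/β-catenin livers Car3 was still first, at 55.9 ± 40.9 CPM per kb, but its range reached that of Car8 (21.1 ± 4.70), Car2 (18.4 ± 5.09), Car5a (16.8 ± 7.81) and Car4 (15.1 ± 9.59). These last 4 did not differ from each other beyond their spread. Lengths taken from the longest transcript gave 460 CPM per kb for Car3 in CD Vec livers, and the same leading order.

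Summed over all 16 carbonic anhydrase genes, the level per kilobase was 375 ± 39.6 CPM per kb in CD Vec, 133 ± 63.1 in CD c-MET/β-catenin, 377 ± 57.2 in LPD Vec and 237 ± 64.5 in LPD c-MET/β-catenin livers. Most of that difference was Car3, which made up 71.8% ± 3.37 of the sum in CD Vec, 36.5% ± 17.5 in CD c-MET/β-catenin, 77.2% ± 1.25 in LPD Vec and 65.3% ± 8.70 in LPD c-MET/β-catenin livers. Without Car3 the sums were 105 ± 3.59, 77.3 ± 23.2, 85.6 ± 11.4 and 78.6 ± 5.72 CPM per kb in the same order. Car2 and Car4, together a trace of the sum in Vec livers, made up 15.8% ± 6.48 and 11.3% ± 4.15 of it in CD c-MET/β-catenin livers, and 2.85% and 4.39% of it in those on LPD.

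**Figure D1:**
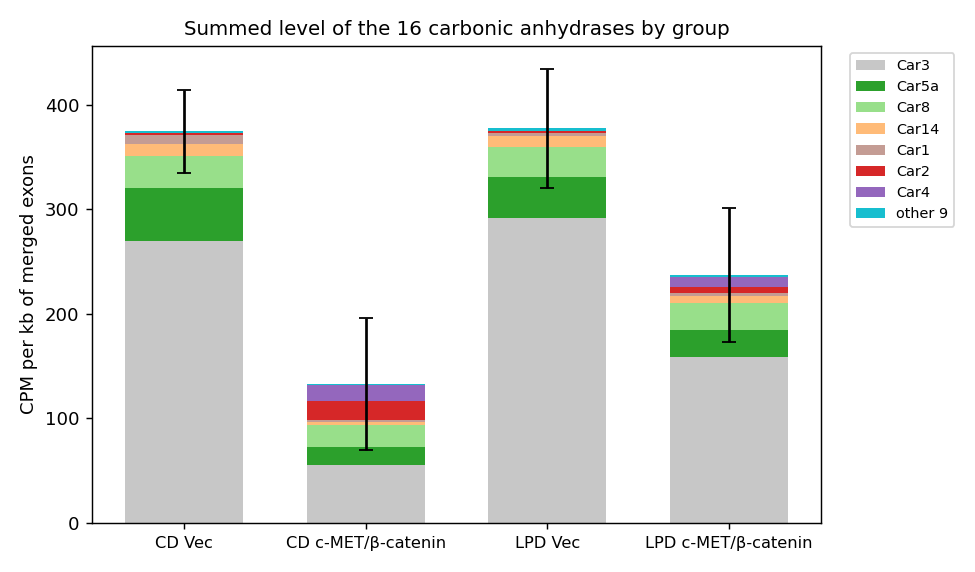
Summed level of the 16 carbonic anhydrases (y axis, CPM per kb of merged exons) in the 4 groups, with each bar the mean of 3 libraries, its colours the genes and the error bar the SD of the sum. Car3 fills most of each Vec bar, and Car2 and Car4 together take a broad band only in the bar of CD c-MET/β-catenin livers.

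On CD, the question was which carbonic anhydrases change when the oncogenes have produced tumours. With Car4 left out, 6 of 6 members were called, where 35.4% of all tested genes were. The members were chosen with earlier results of these data known, so this count describes the list and is no test of the family. Car2 rose, and Car1, Car3, Car5a, Car8 and Car14 fell. For each of the 6 the 3 c-MET/β-catenin libraries and the 3 Vec libraries did not overlap, as held for 42.6% of all tested genes. The median log2 fold change of the 6 was -1.83, beside -0.01 for all tested genes. In whole liver, fewer cells of a type and less RNA per cell cannot be told apart. In a fit with a term for the header runs, 1 of the 6 (Car2) was still called. Run 1 held CD c-MET/β-catenin livers alone, so that contrast then rests on 1 library of the group. The other 5 kept their sign there with edgeR adjusted p of 0.162 to 0.691. Car14 was at -1.87 in that fit, against -2.06 without the term, Car3 at -1.58 against -2.27, Car1 at -1.42 against -2.38, Car5a at -0.97 against -1.59 and Car8 at -0.21 against -0.51. Within run 2, 1 library against 1, all 6 differed in the same direction as over all libraries. In mean log2 CPM the difference of Car1 was -1.19 in run 2 against -2.38 over all libraries, that of Car3 -1.74 against -2.76, that of Car8 -0.35 against -0.53 and that of Car14 -2.34 against -1.91.

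Car5a, the mitochondrial enzyme, was at 66.4, 69.6 and 67.6 CPM in CD Vec livers and at 12.4, 21.8 and 33.3 CPM in CD c-MET/β-catenin livers. It was at 57.0, 44.5 and 56.7 CPM in LPD Vec livers and at 28.3, 29.2 and 45.7 CPM in LPD c-MET/β-catenin livers. CD Vec was the tightest group and the highest, and the 2 LPD groups overlapped through 1 library. On CD the level fell by 1.59 on the log2 scale (SE 0.30, edgeR adjusted p = 0.00167), about a 3.02-fold lower level. On LPD the difference was -0.62 (95% interval -1.25 to 0.02, edgeR adjusted p = 0.472). The fall on LPD was smaller by 0.98 (interaction, SE 0.41), which did not pass the test at an edgeR adjusted p of 0.158. Without CD c-MET/β-catenin replicate 3, the highest of its group, the interaction was 1.38 and passed (edgeR adjusted p = 0.0303). That replicate is the only library of its group outside run 1. With a term for header runs the interaction was 0.38, and within run 2 it was 0.44, against 1.06 for all libraries (mean log2 CPM). Within run 2 the difference on CD was -1.02, against -1.70 for all libraries (mean log2 CPM). The overlapping RNA BC048644 fell on CD too, by 1.27 (edgeR adjusted p = 0.0211), at levels of 2.66 ± 0.72 CPM in CD Vec livers. Leaving out CD Vec replicate 2 or CD c-MET/β-catenin replicate 1 or 3 ended that call (edgeR adjusted p = 0.0518 to 0.0681).

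Cps1, which takes up the bicarbonate that Car5a makes, was at 2367, 2290 and 3300 CPM in CD Vec livers and at 339, 114 and 473 CPM in CD c-MET/β-catenin livers. LPD Vec livers had 1504, 756 and 1257 CPM of Cps1, and LPD c-MET/β-catenin livers 1081, 536 and 1084 CPM. On CD it fell by 3.10 (SE 0.48, edgeR adjusted p = 0.000577), more than Car5a on the same scale. Unlike Car5a, its interaction passed the test (2.72, SE 0.64, edgeR adjusted p = 0.0262), but not when any 1 of 6 libraries was left out (2.48 to 2.79, edgeR adjusted p = 0.0502 to 0.0742). These were CD Vec replicate 3, CD c-MET/β-catenin replicate 1, LPD Vec replicates 2 and 3, and replicates 1 and 3 of the oncogene livers on LPD. Whether Cps1 and Car5a differ in these changes was not tested. The genes with profiles nearest to Car5a over the 12 libraries, of 9434 with a mean of at least 5 CPM, were Haao of the tryptophan pathway, Tmem86b and Pbld1. Their centred log2 CPM differed from that of Car5a by a root mean square of 0.20, 0.23 and 0.23, where the median gene differed by 0.75. Car5b, the second mitochondrial enzyme, was far lower, at 2.44 ± 0.69 CPM in CD Vec and 5.32 ± 0.35 CPM in LPD Vec livers. Its difference between diets in Vec livers was 1.12 (SE 0.25), with an edgeR adjusted p of 0.0833, while DESeq2 called it (adjusted p = 0.00238).

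Car3, a cytosolic enzyme of low activity that is abundant in male rodent hepatocytes, fat and muscle, was at 823, 642 and 853 CPM in CD Vec livers. CD c-MET/β-catenin livers had 29.2, 196 and 255 CPM, LPD Vec livers 952, 690 and 865 CPM, and LPD c-MET/β-catenin livers 550, 258 and 555 CPM. Both c-MET/β-catenin groups lay below their Vec group in every library. The fall on CD was by 2.27 (SE 0.59, edgeR adjusted p = 0.0118). On LPD the difference of -0.88 (95% interval -2.13 to 0.37) did not pass (edgeR adjusted p = 0.666). Among c-MET/β-catenin livers, Car3 was higher on LPD than on CD by 1.51 (SE 0.58, edgeR adjusted p = 0.0911). CD c-MET/β-catenin replicate 1 was the lowest library, and without it this difference was 1.01 and passed (edgeR adjusted p = 0.0464). Of the muscle markers, Ckm had 0 reads in all 12 libraries, and the 6 together were at 0.537 to 1.05 CPM. The 4 fat markers together were at most at 1.37 CPM, in CD Vec replicate 1, and at most at 0.173 CPM in the 9 libraries outside that group.

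Car8, a relative without carbonic anhydrase activity that binds the inositol trisphosphate receptor, had the smallest absolute log2 fold change of the 6 tested members on CD. It was at 107, 116 and 124 CPM in CD Vec and at 61.7, 85.2 and 97.4 CPM in CD c-MET/β-catenin livers. LPD Vec livers had 124, 107 and 97.3 CPM and LPD c-MET/β-catenin livers 103, 90.5 and 105 CPM. The fall on CD was by 0.51 (SE 0.16, edgeR adjusted p = 0.0276), and no other comparison passed. That call was lost in 5 of 19 alternatives, among them leaving out CD Vec replicate 3 (-0.45, edgeR adjusted p = 0.0807) or CD c-MET/β-catenin replicate 1 (-0.34, edgeR adjusted p = 0.0738), and scaling by library totals alone, where the difference was -0.22.

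Car2, the fast cytosolic enzyme of red blood cells, bile duct cells and many other cells, was at 4.89, 3.47 and 4.32 CPM in CD Vec livers. CD c-MET/β-catenin livers had 33.5, 57.9 and 42.4 CPM, LPD Vec livers 6.04, 5.74 and 5.33 CPM, and LPD c-MET/β-catenin livers 13.9, 18.0 and 12.7 CPM. No group overlapped another. It was the only member called in more than 2 comparisons. The rise on CD was 3.39 (SE 0.23, edgeR adjusted p = 7.59e-06), about 10.5-fold, and that on LPD was 1.38 (SE 0.21, edgeR adjusted p = 0.00824), about 2.60-fold. The difference between the 2 rises was -2.01 (interaction, SE 0.30, edgeR adjusted p = 0.00385), and Car2 was lower on LPD than on CD in c-MET/β-catenin livers by 1.58 (SE 0.21, edgeR adjusted p = 0.000724). With a term for header runs the interaction was -1.95 (edgeR adjusted p = 0.0609), and within run 2 it was -1.87 in mean log2 CPM. The call on LPD was lost when LPD Vec replicate 1, 2 or 3 was left out, with edgeR adjusted p of 0.0506, 0.0564 and 0.0583 and differences of 1.42, 1.38 and 1.33.

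Car1, a cytosolic enzyme best known from red blood cells, moved the other way. It was at 7.23, 19.6 and 7.86 CPM in CD Vec, 0.837, 2.45 and 3.40 CPM in CD c-MET/β-catenin, 3.45, 2.74 and 3.69 CPM in LPD Vec, and 4.54, 1.72 and 2.75 CPM in LPD c-MET/β-catenin livers. CD Vec livers stood above all the others, and replicate 2 stood apart within them. The fall on CD was by 2.38 (SE 0.53, edgeR adjusted p = 0.00483), and without that replicate it was by 1.78 (edgeR adjusted p = 0.0185). Between the diets in Vec livers Car1 differed by -1.81 (SE 0.52, edgeR adjusted p = 0.193), although the 3 LPD Vec libraries were all below the 3 CD Vec libraries. DESeq2 called that difference (-1.81, adjusted p = 0.0193) and edgeR did not. Without CD Vec replicate 2 it was -1.20 (edgeR adjusted p = 0.426).

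Red blood cell genes set beside Car1 and Car2 were also measured. Slc4a1, the chloride bicarbonate exchanger of the red cell membrane, was at 0.306, 0.398 and 0.104 CPM in CD Vec and at 9.70, 4.77 and 8.87 CPM in CD c-MET/β-catenin livers. It passed the filter on low counts only through the latter group, so the fitted difference of 4.84 (SE 0.61) is given with no test. The globin genes Hba-a1 (3.31, edgeR adjusted p = 0.0144) and Hbb-bs (1.97, edgeR adjusted p = 0.00324) were called higher on CD, and Alas2, which makes heme in red cell precursors, was at -0.81 (edgeR adjusted p = 0.0818). In CD Vec livers Alas2 was at 191 ± 29.5 CPM, far above Hbb-bs at 8.72 ± 1.34 CPM. Which cells its reads came from was not tested. Hba-a1 ranged from 1.92 to 24.8 CPM in the CD oncogene livers, and without replicate 1, the highest, its difference was 1.26 and did not pass (edgeR adjusted p = 0.0702), while that of Hbb-bs was 1.37 and passed (edgeR adjusted p = 0.00911). Hba-a1 and Hbb-bs were called lower on LPD than on CD among c-MET/β-catenin livers, as Car2 was. Leaving out replicate 1 or 3 of the LPD group ended that call for Hba-a1 (edgeR adjusted p = 0.0613 and 0.0562), and without CD replicate 1 the differences were -1.58 for both genes, against -3.63 and -2.17. In LPD c-MET/β-catenin livers Slc4a1 was at 0.195, 0.140 and 0 CPM, while Car2 was still above its LPD Vec level.

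The bile duct gene Krt19 rose on CD by 2.91 (SE 0.32, edgeR adjusted p = 7.05e-05), from 0.761 ± 0.021 to 5.75 ± 1.82 CPM. Krt7 (0.33, edgeR adjusted p = 0.663), Epcam (-0.50, edgeR adjusted p = 0.398) and Muc1 (-0.48, edgeR adjusted p = 0.449) were not called there. On LPD Krt19 differed by -0.20 (edgeR adjusted p = 0.913), where Car2 rose. The part of red blood cells and bile duct cells in the values of Car1 and Car2 was not tested.

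**Figure D2:**
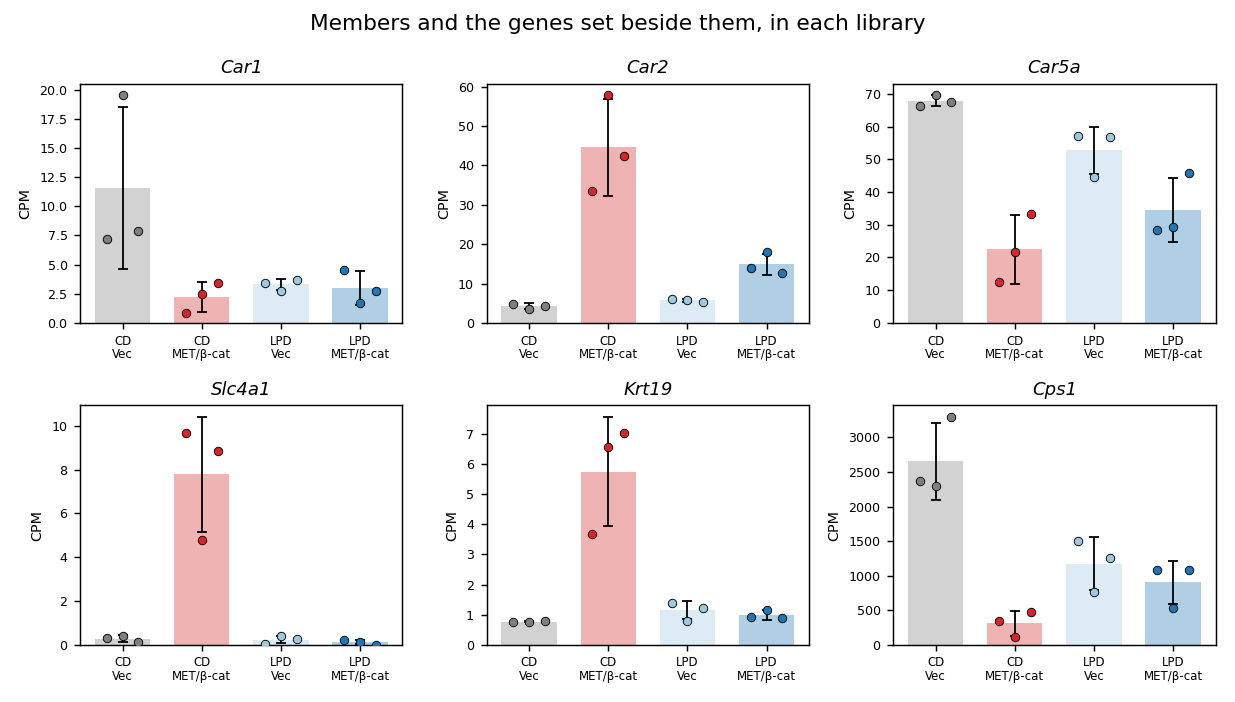
Levels (y axes, CPM, each starting at 0) of Car1, Car2, Car5a, Slc4a1, Krt19 and Cps1 in the 4 groups, where points are libraries, bars means and error bars SD (n = 3). Slc4a1 and Krt19 are high only in CD c-MET/β-catenin livers among the 4 groups, whereas Car2 is above its Vec group on both diets and Car1 is lower in CD c-MET/β-catenin than in CD Vec livers.

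Car4, which sits on the outer face of the cell membrane by a lipid anchor, was close to absent without the oncogenes. It had 5, 0 and 6 reads in CD Vec livers and 5, 0 and 0 reads in LPD Vec livers. CD c-MET/β-catenin livers had 446, 1228 and 698 reads, or 12.9, 50.1 and 26.1 CPM, and LPD c-MET/β-catenin livers 413, 668 and 259 reads, or 20.2, 23.4 and 11.3 CPM. Every oncogene library was thus far above every Vec library, and the 2 oncogene groups overlapped. On CD the fitted difference was 7.22 (SE 0.80), given with no test, and within run 2 the difference in mean log2 CPM was 6.04. With a floor of 3 reads per library for Vec livers, the mean level was at least 120-fold higher on CD. Replicate 2 was the highest library of the CD group, and without it the bound was 79-fold and the fitted difference 6.61. On LPD, where the gene was chosen for its level, the mean level was at least 105-fold higher. Between the diets the fitted difference in c-MET/β-catenin livers was -0.69 (SE 0.52), and -0.088 without replicate 2 of the CD group, both given with no test.

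The genes with profiles nearest to Car4 over the 12 libraries were Apcdd1 and Sfrp2, both known as Wnt pathway inhibitors or modulators, and the transcription factor Arnt2. Their centred log2 CPM differed from that of Car4 by a root mean square of 0.72, 0.74 and 0.89, where the median gene differed by 3.60. Apcdd1 had means of 0.172 CPM in CD Vec, 12.2 in CD c-MET/β-catenin, 0.0951 in LPD Vec and 10.4 CPM in LPD c-MET/β-catenin livers. Sfrp2 had means of 25.0 CPM (CD) and 25.9 CPM (LPD) with the oncogenes, and of 0.068 and 0.076 CPM in the Vec livers.

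Car14, a membrane enzyme of the hepatocyte surface, was at 35.6, 13.4 and 38.7 CPM in CD Vec livers and at 7.33, 6.07 and 7.56 CPM in CD c-MET/β-catenin livers. LPD Vec livers had 40.9, 20.7 and 21.2 CPM and LPD c-MET/β-catenin livers 24.2, 11.4 and 19.4 CPM. The Vec groups were wide, and CD c-MET/β-catenin livers were tight and below all other libraries. The fall on CD was by 2.06 (SE 0.41, edgeR adjusted p = 0.00260). On LPD the difference was -0.59 (95% interval -1.46 to 0.27, edgeR adjusted p = 0.674). Car14 was higher on LPD than on CD in c-MET/β-catenin livers, by 1.38 (SE 0.41, edgeR adjusted p = 0.0330). Leaving out any 1 of the 3 CD c-MET/β-catenin libraries ended that call (edgeR adjusted p = 0.0848, 0.0948 and 0.0646 for replicates 1, 2 and 3). So did leaving out replicate 1 or 3 of the LPD c-MET/β-catenin group (edgeR adjusted p = 0.110 and 0.0856), and the differences of these 5 fits were 1.14 to 1.45. Aph1a, which shares exon bases with Car14, was at 41.3 ± 7.35 CPM in CD Vec and 30.0 ± 1.01 CPM in CD c-MET/β-catenin livers, and fell by 0.46 (edgeR adjusted p = 0.0251), a call that ended without CD Vec replicate 1 or 3 or replicate 2 of the CD oncogene livers (edgeR adjusted p = 0.0701 to 0.107).

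Car12, a membrane enzyme induced by hypoxia in many tumours, had 25 reads in CD c-MET/β-catenin replicate 1 and 1 read each in LPD Vec replicate 2 and LPD c-MET/β-catenin replicate 3. The other 9 libraries had 0 reads. A count of 0 in CD c-MET/β-catenin replicates 2 and 3 allows a level of up to 0.122 and 0.112 CPM, for counting error only, beside the 0.722 CPM of replicate 1. Car9, the best known hypoxia-induced member of the family, had 1 to 6 reads per library and was not tested. The same replicate 1 had the highest level of the hypoxia-inducible genes Ndrg1 and Slc2a1. Ndrg1 was at 206, 33.6 and 78.7 CPM in CD c-MET/β-catenin replicates 1, 2 and 3 and at 7.56 to 11.4 CPM in CD Vec livers. Slc2a1, the glucose transporter, was at 37.6, 10.9 and 12.2 CPM in the same 3 libraries. On CD, 5 of 9 listed hypoxia-inducible genes rose and 2 fell, where 18.7% of all tested genes were called higher and 16.7% lower. Ndrg1 (3.47, edgeR adjusted p = 0.000599), Ankrd37 (2.26, edgeR adjusted p = 0.0176) and Egln3 (2.02, edgeR adjusted p = 0.0183) had the largest rises. Without CD c-MET/β-catenin replicate 1 they were 2.55 for Ndrg1 (edgeR adjusted p = 0.000367), 1.51 for Ankrd37 (edgeR adjusted p = 0.0821) and 0.90 for Egln3 (edgeR adjusted p = 0.0872), and the latter 2 were not called. The number that rose was 2 without that library or without CD Vec replicate 2. Ankrd37 was also not called without CD Vec replicate 1 or 2, nor Egln3 without CD Vec replicate 2 or 3. Vegfa, another target, fell by 0.67 (edgeR adjusted p = 0.0232), and Pdk1 by 1.57 (edgeR adjusted p = 0.000682). The call for Vegfa ended without CD Vec replicate 2 or replicate 2 or 3 of the CD oncogene livers (edgeR adjusted p = 0.0685 to 0.0809). On LPD edgeR called 0 of the 9, where 1.32% of all tested genes were called, and Pdk1 alone had an unadjusted p under 0.05 (-0.71, edgeR adjusted p = 0.267). The part of hypoxia in the reads of Car12 was not tested.

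**Figure D3:**
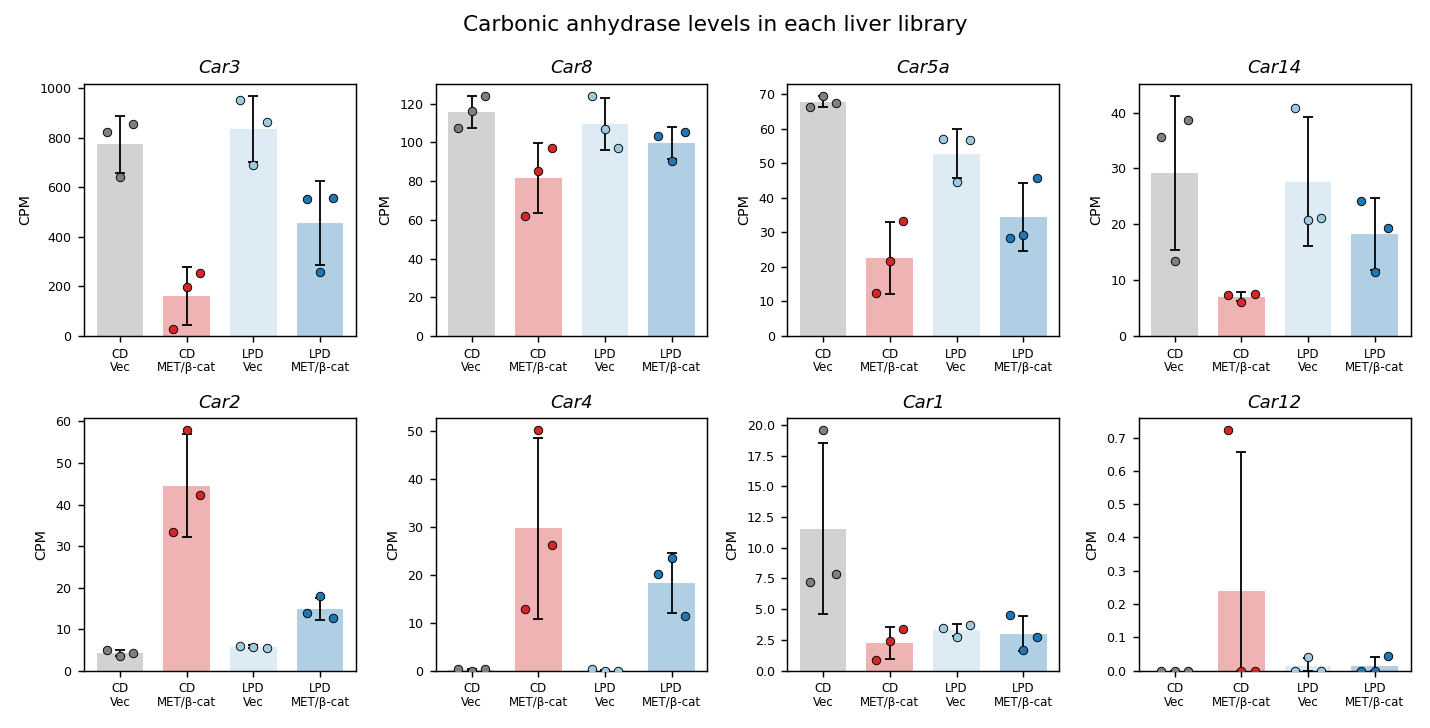
Level of the 8 members (y axes, CPM, each starting at 0) in the 4 groups, where MET/β-cat is c-MET/β-catenin, points are libraries, bars means and error bars SD (n = 3). Car3, Car5a, Car8, Car14 and Car1 are lower in CD c-MET/β-catenin than in CD Vec livers, Car2 and Car4 are higher, and Car12 has reads above 1 in a single library.

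Of the other 8 carbonic anhydrases, 5 passed the filter on low counts. Car13 did so only through CD c-MET/β-catenin livers and Car15 only through those on LPD, and both are described with no test. Of the other 3, 1 was called on CD (Car11), where 35.4% of all tested genes were. Car11, a relative without enzyme activity, fell by 1.82 (SE 0.52, edgeR adjusted p = 0.0182), from 11, 9 and 14 reads to 3, 6 and 5. The call for Car11 was lost in 3 of 18 alternatives. Car13, a cytosolic enzyme, had 6, 1 and 7 reads in CD Vec livers and 45, 16 and 15 reads in CD c-MET/β-catenin livers. Car5b and Car7 were not called on CD. Most exon bases of Car15 (65.7%) are shared with Gm20518 on the same strand, so its reads cannot be told apart from those of that gene. Car6 had at most 2 reads in a library and Car10 had none.

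On LPD, the question was whether the same genes change with the oncogenes when dietary protein is low. Of the 6 members tested there, with Car4 left out, 1 was called (Car2), where 1.32% of all tested genes were. All 6 differed in the same direction on both diets, and for all 6 the absolute log2 fold change was smaller on LPD than on CD. The share of all tested genes with a smaller change on LPD was not measured. Among all tested genes 4933 were called on CD and 184 on LPD, so this is not shown to be particular to the members. The sign of Car1 on LPD turned (0.14) when replicate 2 of the LPD oncogene livers was left out. The 2 comparisons share no mice. The differences not yet given were -0.13 for Car8 (95% interval -0.48 to 0.22) and -0.14 for Car1 (-1.29 to 1.004). The intervals of Car1, Car3, Car5a, Car8 and Car14 all include 0, and those of Car1, Car3, Car5a and Car14 also include falls by more than 1. The test of the difference between the diets, the interaction, called Car2 and none of the other 5, where 8.91% of all genes were called. At an unadjusted p under 0.05 it also included Car1 (2.24, edgeR adjusted p = 0.0809, and 1.63 with an edgeR adjusted p of 0.156 when CD Vec replicate 2 was left out), Car14 (1.47, edgeR adjusted p = 0.125) and Car5a, and DESeq2 also called Car1 (adjusted p = 0.0201). So the smaller changes of the other members on LPD are not shown to differ from those on CD.

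**Figure D4:**
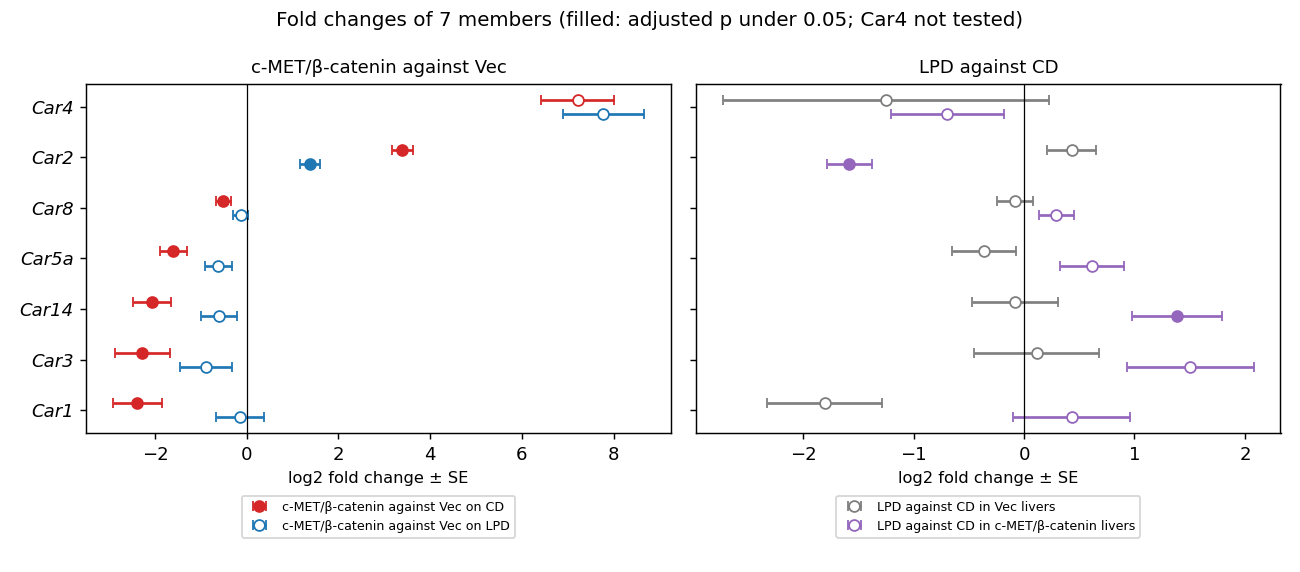
log2 fold changes with SE (x axes) of the 7 members that passed the filter on low counts (y axis) for c-MET/β-catenin against Vec on each diet (left) and for LPD against CD after each injection (right), with filled points for an edgeR adjusted p under 0.05. On CD the 6 red points of the tested members are filled, and on LPD the point of Car2 alone is. The points of Car4 are open because its differences are given with no test.

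The diet itself was compared separately after each injection. In Vec livers 0 of the 6 tested members were called by edgeR, where 0.308% of all tested genes were. At an unadjusted p under 0.05 only Car1 of these 6 remained, and DESeq2 called Car1 alone among them. The differences of the rest ran from -0.36 for Car5a to 0.43 for Car2. Car4 had 11 reads in all in CD Vec and 5 in LPD Vec livers. In c-MET/β-catenin livers 2 of the 6 members tested were called, Car2 lower and Car14 higher on LPD, where 20.0% of all tested genes were. Car3 (1.51), Car5a (0.62, SE 0.29, edgeR adjusted p = 0.163), Car1 (0.43) and Car8 (0.29) differed without passing. Within run 2, with 1 CD library, the differences in mean log2 CPM were -1.52 for Car2, 1.20 for Car14, 0.75 for Car3 and 0.01 for Car5a, against -1.56, 1.32, 1.92 and 0.69 over all libraries. With a term for header runs Car14 lost its call (1.27, edgeR adjusted p = 0.350) and Car2 kept it (-1.51, edgeR adjusted p = 0.0215). When replicate 3 of the CD group was left out, the difference of Car5a was 1.02 and passed (edgeR adjusted p = 0.0207). Among the other carbonic anhydrases, Car11 was higher on LPD (2.62, SE 0.49, edgeR adjusted p = 0.00426), as were 8.66% of all tested genes, and without replicate 2 of the LPD group it differed by 2.02 (edgeR adjusted p = 0.0181). Car15, described with no test, had 10, 24 and 23 reads in LPD c-MET/β-catenin livers and 8, 5 and 5 reads in those on CD.

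The enzymes that use bicarbonate followed the direction of Car5a on CD. Of 9 listed enzymes, 7 fell on CD and none rose, with a median log2 fold change of -1.14, beside -0.01 for all tested genes, of which 16.7% were called lower. The largest falls were those of Cps1, of Pcca (-1.51, edgeR adjusted p = 0.000161), a subunit of propionyl-CoA carboxylase, and of Acacb (-1.496, edgeR adjusted p = 0.0316), an acetyl-CoA carboxylase of fatty acid metabolism. Pcx fell by 0.70 (edgeR adjusted p = 0.0313), and Cad, which uses bicarbonate for pyrimidine synthesis, was at -0.28 (edgeR adjusted p = 0.441). Without CD Vec replicate 1 Acacb was at -0.92 (edgeR adjusted p = 0.142) and Pcx at -0.50 (edgeR adjusted p = 0.125). The call for Acacb also ended without replicate 1 or 2 of the CD oncogene livers, and that for Pcx without replicate 2 or 3. Leaving out 1 library left 5 to 8 of the 9 called lower on CD. On LPD 0 of the 9 were called by edgeR, where 1.32% of all tested genes were, with a median of -0.24, and Mccc2 (-0.31, edgeR adjusted p = 0.364) was the only one at an unadjusted p under 0.05. The interaction was called for 5 of the 9, all positive: Cps1, Pcca, Pccb, Mccc1 and Mccc2, where 4.49% of all tested genes had a called positive interaction. Leaving out 1 library left 1 to 5 of the 9 so called, with 1 without LPD Vec replicate 2. Of the 6 urea cycle genes, of which Cps1 is one, 5 fell on CD (16.7% of all tested genes did) and Nags, which makes the activator of Cps1, rose by 0.59 (edgeR adjusted p = 0.0419). The call for Nags was lost in 10 of the 12 fits that left out 1 library (0.22 to 0.63), with 0.22 without replicate 1 of the CD oncogene livers.

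Of 11 bicarbonate transporters 7 passed the filter on low counts, Slc4a1 only through CD c-MET/β-catenin livers. Of the other 6, Slc4a4, the sodium bicarbonate cotransporter, rose on CD by 0.83 (SE 0.25, edgeR adjusted p = 0.0200), and 1 of 6 is near the 18.7% of all tested genes called higher. That call ended without CD Vec replicate 2 or 3 or replicate 1 of the CD oncogene livers (edgeR adjusted p = 0.0615 to 0.0806). Slc4a2, the anion exchanger of hepatocytes and bile duct cells, was at 0.38 (edgeR adjusted p = 0.105). None of the 6 was called on LPD by edgeR, where 1.32% of all tested genes were, and none had an unadjusted p under 0.05 there.

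Markers of other liver cells moved in part with these changes. On CD 18.7% of all tested genes were called higher and 16.7% lower. Of 4 macrophage and leukocyte genes, 2 rose on CD. Cd68 (1.71, edgeR adjusted p = 0.000349) and Ptprc (0.87, edgeR adjusted p = 0.00754) rose, while Adgre1 (0.94, edgeR adjusted p = 0.105) and Clec4f (-0.01, edgeR adjusted p = 0.984) were not called. Of 7 endothelial genes, Clec4g fell by 1.09 (edgeR adjusted p = 0.000695) and the other 6 were not called, so 1 of 7 is near the 16.7% called lower. The median of the 7 was 0.07. Of those not called, Kdr was at -0.96 (edgeR adjusted p = 0.0526), Lyve1 at 0.93 (edgeR adjusted p = 0.167) and Cdh5 at 0.69 (edgeR adjusted p = 0.192). Of the listed hepatocyte genes 3 were found, and 1 of 3 was called lower, beside the same 16.7%. Ttr fell by 0.87 (edgeR adjusted p = 0.00542), while Alb was at -0.20 (edgeR adjusted p = 0.495) and Apoa1 at 0.33 (edgeR adjusted p = 0.328). The part of these cells in the changes of the carbonic anhydrases was not tested.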

How the data were processed

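Liver RNA of 12 mice, 1 library each, was sequenced. The authors aligned reads to mm10 with HISAT2 and deposited raw counts per Entrez gene from featureCounts (versions and the strand and multiple-mapping settings are not given in the sources used here). The labels give an rRNA-depletion library and the study's methods an mRNA selection. Table columns call the chow diet HPD.

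Of 27179 genes, 25275 took symbols from RefSeq (GRCm38.p6) and 18 from GENCODE M21. Deposited counts were tested in R 4.3.3 with edgeR 4.0.16: filterByExpr, TMM factors (0.864 to 1.12) and 1 robust quasi-likelihood fit of the 4 groups, with Benjamini-Hochberg adjustment over 13947 genes. Genes that passed the filter only through the group where they were high (Car4, Car13, Car15, Slc4a1) are given without a test. The interaction is the injection effect on LPD minus that on CD. SE was the log2 fold change divided by the square root of F. The biological coefficient of variation was 23.2%. CPM used TMM-scaled totals, and CPM per kb merged GENCODE exons. Libraries held 19476209 to 31990267 counts, and intervals and floors (3 reads for a count of 0) cover counting error only for single libraries. No 2 replicates agreed within sampling noise. The test was run on simulated counts first.

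Alternatives were DESeq2 1.42.0, other scalings, no filter, a replicate block, a header-run term, only the groups compared and leaving out each library. Members and gene lists were chosen with earlier results of these data known. All 16 carbonic anhydrases are named. From other lists the rule named the 3 called genes with the largest change in a comparison, and textbook partners (Cps1, Slc4a1, globins, Vegfa, Slc2a1). For Car4 and Car5a it named the 3 nearest profiles among tested genes with a mean of at least 5 CPM and a full symbol. Other genes (such as Pdk1, Cad, Pcx, Nags, Slc4a2, Mccc2, Alas2, Alb, Krt7, Epcam, Muc1, Apoa1, Lyve1, Cdh5, Adgre1, Kdr and Clec4f) were named after their values were seen. Some genes of the red blood cell and bile duct lists are not reported here, nor are those lists' counts and sums. A planned comparison of protein sequences was not made. Promoter letters came from RefSeq.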

Additional observations from a re-analysis of the deposited data

Results flagged for a closer look

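The effect of the oncogenes on Car2 differed between the diets by a test of the difference itself. The log2 rise was 3.39 on CD and 1.38 on LPD, and the interaction was -2.01 (SE 0.30, edgeR adjusted p = 0.00385). All 3 LPD c-MET/β-catenin livers were below all 3 CD c-MET/β-catenin livers. Tumour burden also differed between these groups in the paper, so diet and tumour load cannot be told apart here. With a term for header runs the value was -1.95 and did not pass (edgeR adjusted p = 0.0609).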

How the results depend on the processing

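With 3 mice per group and header runs that overlap the groups, a run effect and the oncogene effect on CD can be told apart only through CD c-MET/β-catenin replicate 3. A term for header runs left 2 members called on CD, 1 between diets in c-MET/β-catenin livers and 0 in the interaction, 0 other carbonic anhydrases on CD and 0 between diets in c-MET/β-catenin livers. It left 945 genes on CD, 75 on LPD, 16 between diets in Vec livers, 618 between diets in c-MET/β-catenin livers and 85 in the interaction, against 4933, 184, 43, 2784 and 1243. The fit then holds 1 CD c-MET/β-catenin library outside run 1. Under that term Car1 on LPD was at 0.00318, and between diets in c-MET/β-catenin livers Car1 was at -0.19 and Car7 at -0.00919, each with its sign turned.

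DESeq2 called 497 genes on LPD, 339 between diets in Vec livers, with 1 member (Car1) and 1 other carbonic anhydrase (Car5b), and 2083 in the interaction, with 2 members. The fit of only the groups compared called 3014 genes on CD with 0 other carbonic anhydrases, 505 on LPD and 3 between diets in Vec livers. Without a filter on low counts 1 other carbonic anhydrase was called on CD and 1 member between diets in c-MET/β-catenin livers. Library totals alone moved the median of all genes by 0.29 on CD, 0.11 on LPD, 0.10 between diets in Vec livers and -0.18 in the interaction. The share of called genes that were higher went from 52.8% to 78.8% on CD, from 43.4% to 34.3% between diets in c-MET/β-catenin livers and from 50.4% to 29.0% in the interaction. They called 66 genes between diets in Vec livers and turned Car7 on CD (0.033) and Car8 between diets in Vec livers (0.016). Header runs moved the higher share to 67.9%, 28.6% and 37.6% in the same 3 comparisons. DESeq2 gave 42.2% between diets in Vec livers, against 60.5%, and only the groups compared gave 66.7% on LPD, against 87.5%.

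Same-numbered libraries do not form pairs by the labels, and 2 of 18 correlations of their deviations passed 0.1 (-0.18 to 0.17), and in 6 of 18 the library correlated best with its own number. The replicate block left members called at 7, 1, 0, 2 and 1, called 1 other carbonic anhydrase on CD, and called 16 genes between diets in Vec livers and 812 in the interaction.

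Leaving out 1 library gave 6 to 7 members on CD, 0 to 1 on LPD, 0 between diets in Vec livers, 1 to 2 in c-MET/β-catenin livers and 1 to 3 in the interaction. Other carbonic anhydrases ranged from 0 to 3 on CD and from 1 to 3 between diets in c-MET/β-catenin livers. All genes called ranged from 4251 to 4859 on CD, 52 to 254 on LPD, 5 to 104 and 1585 to 3660 between diets in Vec and c-MET/β-catenin livers, and 391 to 1404 in the interaction. Small differences that turned sign without 1 library were, on CD, Car5b (-0.11 without CD Vec replicate 2, range -0.11 to 0.27). On LPD they were Car1 (0.14, range -0.56 to 0.14) and Car11 (-0.30, range -0.30 to 0.54), both without LPD c-MET/β-catenin replicate 2, and Car13 (0.026 and 0.080 without replicates 1 and 3 of that group, range -0.98 to 0.080). Between diets in Vec livers they were, without CD Vec replicate 2, Car3 (-0.011, range -0.011 to 0.23), Car13 (-0.27, range -0.27 to 0.58) and Car15 (0.24, range -0.77 to 0.24). Car14 there was at 0.078 and 0.17 without CD Vec replicates 1 and 3, and at 0.084 and 0.075 without LPD Vec replicates 2 and 3 (range -0.48 to 0.17). In c-MET/β-catenin livers Car7 was at -0.042 without CD replicate 1 (range -0.042 to 0.37). For other changes under an alternative the cause was not tested. Counts of members on CD and between diets in Vec livers include Car4, and counts of other carbonic anhydrases include Car13 and Car15, which the report gives with no test. Depth limits the folds of Car4 and Car13, with few reads in Vec livers, and of Car11, with few in CD c-MET/β-catenin livers.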
